A study of Mus musculus with 12 samples.

Results

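The genes described here are 9 genes of the tricarboxylic acid (TCA) cycle in mouse liver: Suclg1, Suclg2, Sucla2, Cs, Idh2, Idh3a, Ogdh, Fh1 and Mdh2. They were chosen by the difference between the groups compared below, above all that of the Suclg2 transcripts, so their values are given as a description, with no p, and a count of calls among them further on is read as no result. All 9 were found, with 20 of the 29883 listed protein-coding transcripts and 9 of 14188 genes. Livers of 12 male mice, whose strain is C57BL/8 in the labels and C57BL/6J in the study's methods, were profiled by strand-specific RNA sequencing after ribosomal RNA depletion. The mice were 6 weeks old at the start and were killed in week 8. All 12 received CCl4, a solvent that injures hepatocytes and brings on fibrosis, as 10 µl/g of a mixture with corn oil injected into the peritoneum, 2 times per week. The 6 mice of the PZH group also received Pien Tze Huang (PZH), a multi-component remedy of traditional medicine in China, given daily by gavage at 0.25 mg/g. The 6 control mice received double distilled water by the same route. Each library came from a separate mouse, and mice without CCl4 were not analysed here.

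The TCA cycle runs in the mitochondrial matrix, where it oxidises the acetyl group of acetyl-CoA to carbon dioxide and passes electrons to the respiratory chain. In hepatocytes its intermediates also feed glucose, fatty acid, amino acid and haem metabolism. Succinyl-CoA synthetase, the step that forms a nucleoside triphosphate, pairs an alpha subunit (Suclg1) with a beta subunit that makes the enzyme GTP-forming (Suclg2, prominent in liver and kidney) or ATP-forming (Sucla2, prominent in brain, heart and muscle).

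Values are FPKM, sequenced fragments divided by transcript length and by library size, as the authors deposited them for each transcript. A gene's value is the sum over its listed protein-coding transcripts. The FPKM sum over the protein-coding transcripts was lowest in control 4 (325302) and highest in PZH 1 (370426). Fold changes are differences of mean log2(FPKM + 1), PZH minus control, which understates the change of low genes. Their standard errors (SE) are from limma, n = 6 mice per group.

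The median log2 fold change over all 14188 genes was -0.11 with the values as deposited and -0.00495 after each mouse was divided by a median-ratio scale factor, a shift of 0.105. The factor was 0.840 to 1.002 in PZH livers and 1.02 to 1.10 in control livers, so the groups did not overlap in it. For well expressed genes it added about 0.186 to the log2 fold change, and the changes of the 9 genes are therefore given on both scales. Albumin (Alb), the main secreted protein of hepatocytes, took 10.2% to 12.7% of the FPKM sum in PZH livers and 5.54% to 8.86% in control livers. The part of Alb in the scale factors was not tested.

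Levels can be compared between the 9 genes because FPKM is per length. Mdh2 was highest in 12 of 12 mice, with a mean of 97.2 ± 9.62 FPKM (SD, n = 12 mice), and Idh3a lowest at 10.2 ± 2.44. Between them lay Suclg1 (58.9 ± 9.47), Suclg2 (53.7 ± 5.58), Ogdh (49.6 ± 6.22), Cs (42.4 ± 2.22), Idh2 (41.2 ± 7.84), Sucla2 (37.6 ± 5.05) and Fh1 (32.6 ± 3.84). Neighbours in this inner order overlapped over the 12 mice. Suclg1 exceeded Suclg2 in 9 mice, Suclg2 exceeded Ogdh in 9, Ogdh exceeded Cs in 11, Cs exceeded Idh2 in 7, Idh2 exceeded Sucla2 in 8 and Sucla2 exceeded Fh1 in 7. By group means the order differed. In the PZH group Suclg1 (65.3) stood above Suclg2 (51.1), Idh2 (47.2), Ogdh (46.5), Cs (41.4) and Sucla2 (40.5), whereas in the control group Suclg2 (56.4) stood above Ogdh (52.6), Suclg1 (52.5), Cs (43.4), Idh2 (35.1) and Sucla2 (34.6).

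**Figure D1:**
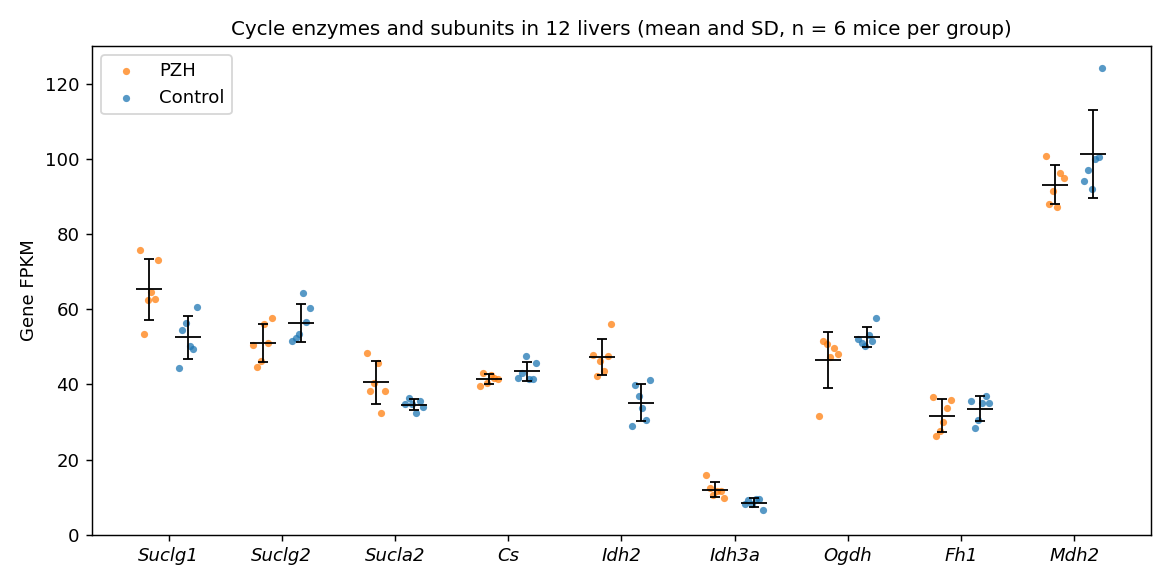
Gene FPKM (linear axis) of the 9 genes in each of 12 livers, orange for PZH and blue for control, with the mean and SD of each group in black (n = 6 mice). Idh2 and Idh3a are the genes whose groups did not overlap, and Mdh2 lies above the other 8 genes in every mouse.

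Suclg1 on chr6:73248382-73276911 (GRCm38, plus strand), the alpha subunit shared by both forms of succinyl-CoA synthetase, had 1 listed transcript of 1519 bases. Its lowest, median and highest values were 53.4, 63.6 and 75.8 FPKM in the PZH mice and 44.3, 52.4 and 60.6 in the control mice. Of the PZH mice, 5 lay above every control mouse, and PZH 2 lay inside the control range. The log2 fold change was 0.31 (SE 0.096) as deposited and 0.49 after median-ratio scaling. In these bulk samples, fewer cells of a type and less RNA per cell cannot be told apart, here and in all results that follow.

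Sucla2 on chr14:73525319-73596142 (plus strand), the ATP-forming beta subunit, had gene values of 32.5, 39.2 and 48.4 FPKM (lowest, median, highest) in the PZH mice. In the control mice they were 32.3, 34.8 and 36.4. The control mice were close together, and 5 PZH mice lay above all of them, while PZH 5 lay near the lowest. Sucla2 had a log2 fold change of 0.21 (SE 0.087) as deposited and 0.39 after median-ratio scaling.

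Suclg2 on chr6:95473009-95718800 (minus strand), the GTP-forming beta subunit, had gene sums of 44.8, 50.8 and 57.6 FPKM in the PZH mice. In the control mice the lowest, median and highest were 51.5, 55.0 and 64.2. The groups overlapped, with 4 PZH mice below every control mouse. The log2 fold change of the gene was -0.14 (SE 0.081) as deposited and 0.040 after median-ratio scaling, so its sign depended on the scaling.

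Ratios within a mouse do not depend on a scale factor. Suclg2 exceeded Sucla2 in 12 of 12 mice, by a ratio of 1.04, 1.20 and 1.57 (lowest, median, highest) in the PZH mice and 1.44, 1.57 and 1.99 in the control mice. PZH 5 and PZH 6 reached the control range and the other 4 PZH mice lay below it. The sum of both beta genes over the alpha gene was 1.31, 1.36 and 1.58 in the PZH mice and 1.56, 1.75 and 1.95 in the control mice. For that sum, PZH 4 at 1.58 lay above control 3 (1.57) and control 6 (1.56), and PZH 2 at 1.55 lay just below them.

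The listed Suclg2 transcripts differ at their ends. Suclg2-204 (ENSMUST00000204224) has 11 exons, 3367 bases and 1299 coding bases, and begins with an exon at chr6:95718689-95718800. Suclg2-201 (ENSMUST00000079847) also has 11 exons, with 2518 bases and 1152 coding bases, and begins with a noncoding exon of its own at chr6:95692487-95692882, 25918 bases downstream of the start of Suclg2-204. The 9 inner exons are identical, and the last exon of Suclg2-204 runs 1133 bases further. Of the bases of Suclg2-204, 1245 are in no other listed transcript, against 396 of Suclg2-201. Suclg2-205 (ENSMUST00000204567) is a partial model of 4 exons and 385 bases, and the other 2 annotated transcripts of the gene were not analysed here.

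**Figure D2:**
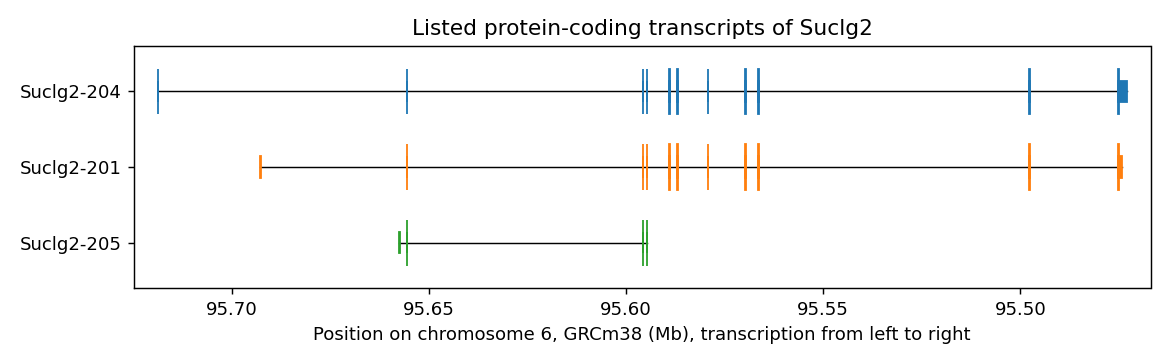
Exons (boxes; tall where coding) of the 3 listed Suclg2 transcripts on chromosome 6 of GRCm38 in Mb, drawn in the direction of transcription, with box outlines that widen short exons. Suclg2-204 and Suclg2-201 start at different exons 25918 bases apart and then share the same 9 inner exons.

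The start codon of Suclg2-204 lies in its first exon and that of Suclg2-201 in the second exon that both share. The reading frame is the same, so Suclg2-201 lacks 147 coding bases (49 codons) at the N-terminal end, where mitochondrial matrix proteins commonly carry their targeting sequence. The coding sequence that Suclg2-204 alone has of this pair (87 bases at chr6:95718689-95718775) and the first 30 coding bases of Suclg2-201 (chr6:95655510-95655539) are shown because they hold the start codons of the transcript models. The 30 bases are also coding, in the same frame, in Suclg2-204. Both are from the GENCODE M21 transcripts on GRCm38, on the minus strand, with the start codon in capitals. Another 60 coding bases of Suclg2-204 lie in the second exon before the start codon of Suclg2-201.
Suclg2-204 first coding exon: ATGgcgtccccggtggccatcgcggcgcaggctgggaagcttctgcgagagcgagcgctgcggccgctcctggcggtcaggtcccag
Suclg2-201 start of coding: ATGtcagagcacggagtgagagtgcagagg

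Suclg2-204 was the higher transcript in every PZH mouse. In PZH 1 to PZH 6 it had 50.3, 35.4, 45.9, 49.3, 50.7 and 49.5 FPKM, and in control 1 to control 6 it had 28.6, 27.8, 32.9, 28.7, 27.5 and 8.70. The groups did not overlap, although PZH 2 and control 3 came within a few FPKM of each other, and control 6 lay far below the other control mice. Suclg2-201 had 0.0999, 9.25, 0.131, 6.76, 0.183 and 7.87 FPKM in PZH 1 to PZH 6. In control 1 to control 6 it had 22.7, 24.5, 20.3, 35.3, 28.9 and 51.3 FPKM. Every control mouse was above every PZH mouse, and the PZH mice lay at 2 levels, near 0 in PZH 1, PZH 3 and PZH 5 and at 6.76 to 9.25 in the other 3. Suclg2-205 stayed between 0.0528 and 0.240 FPKM in the 12 mice, and its groups overlapped.

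The log2 fold change was 0.93 (SE 0.266) for Suclg2-204 and -3.24 (SE 0.638) for Suclg2-201 as deposited. After median-ratio scaling it was 1.11 for Suclg2-204 and -3.10 for Suclg2-201, so these directions held on both scales. With a pseudocount of 0.1 the log2 fold change of Suclg2-201 was -4.40, larger in size, where 3 PZH mice had values near 0. Suclg2-205, close to 0 in all mice, had -0.037 (SE 0.055), -0.013 and, with the pseudocount of 0.1, -0.19. The estimates of the transcripts thus moved in opposite directions within a gene sum whose own change was small. The deposited values are StringTie's division of reads between transcripts that share most exons, here and for Ogdh, Sucla2 and Idh3a, and it was not checked against reads.

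As a share of the gene sum, Suclg2-204 made up 91.8% ± 8.81 (SD, n = 6) in the PZH mice and 46.3% ± 16.7 (SD, n = 6) in the control mice, a difference of 45.5 percentage points. Per mouse, its share was 99.7%, 79.0%, 99.2%, 87.8%, 99.3% and 86.0% in PZH 1 to PZH 6 and 55.5%, 53.0%, 61.7%, 44.6%, 48.6% and 14.4% in control 1 to control 6. Suclg2-204 led in control 1, control 2 and control 3, and Suclg2-201 led in the other 3 control mice. The mean share of Suclg2-201 was 7.87% ± 8.80 (SD, n = 6) in the PZH mice and 53.4% ± 16.7 (SD, n = 6) in the control mice. Control 6 decided which transcript led the control mean: without it the mean share of Suclg2-201 there was 47.0%, and the median over the 6 control mice was 48.9%. Suclg2-205 made up 0.105% to 0.463% of the sum.

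**Figure D3:**
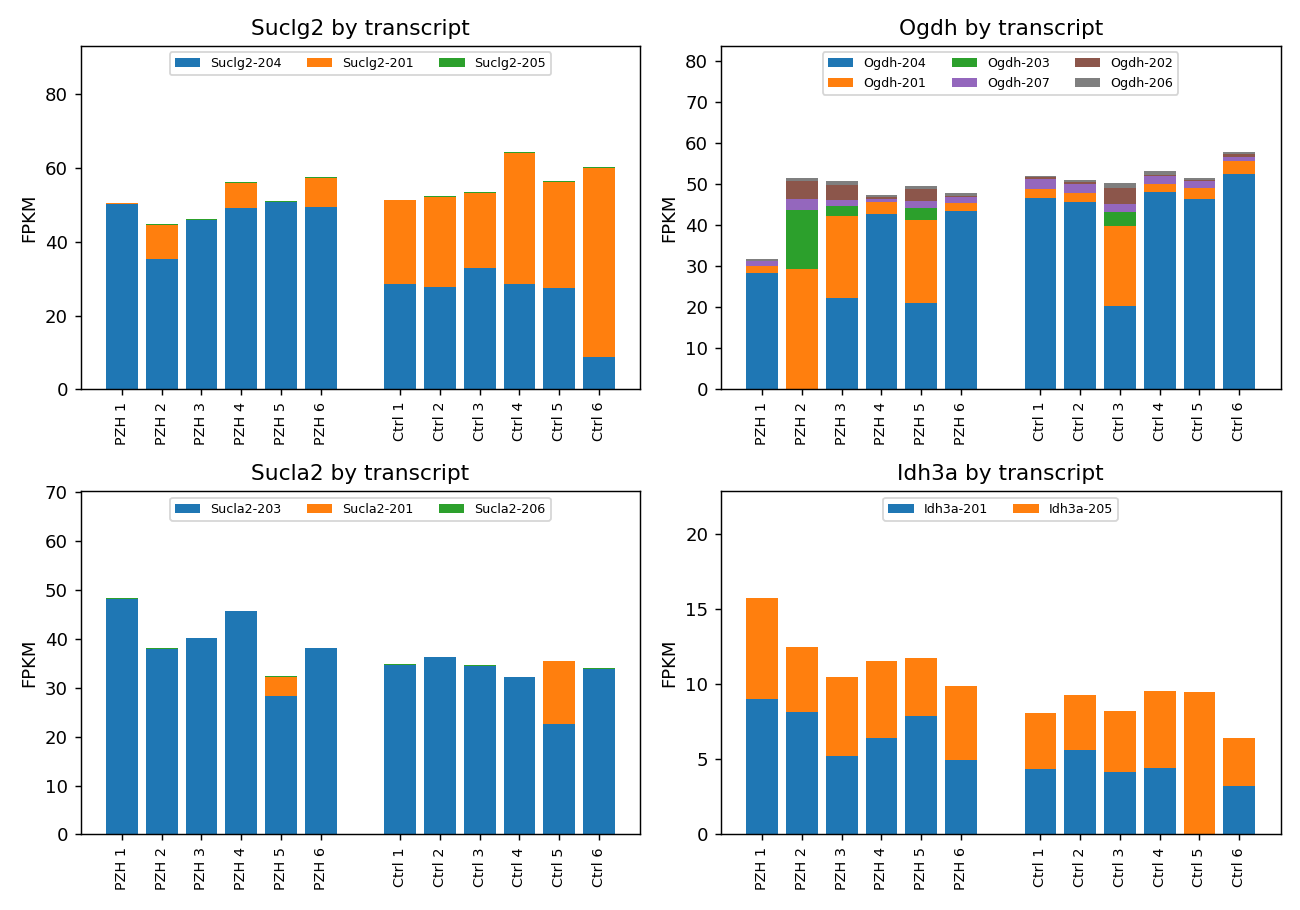
FPKM of each listed transcript, stacked to the gene sum, in the 6 PZH and 6 control mice for Suclg2, Ogdh, Sucla2 and Idh3a, each panel on its own linear axis from 0. The 2 main Suclg2 transcripts divide by group, whereas the transcripts of Ogdh trade places between mice of the same group (0.117 to 43.4 FPKM of Ogdh-204 among the PZH mice).

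Shares of transcripts moved between mice in many other genes. Of 6676 genes with at least 2 listed transcripts and a mean of at least 1 FPKM, 611 (9.15%) had a different leading transcript by mean share in the PZH and control groups, Suclg2 among them. The largest difference in mean share per gene had a median of 4.90 percentage points over these genes, and 45 genes (0.674%), counting Suclg2, reached the 45.5 points of Suclg2. Since Suclg2 was chosen for the difference of its transcripts, its place among these genes is read as no result. Within a group, the widest span of a transcript's share had a median of 21.3 points over genes in the PZH mice and 20.1 in the control mice. For Suclg2 the spans were 20.7 points among PZH livers and 47.3 among control livers. A span of at least 50 points within the same group, a limit set after these shares were seen, was found in 2011 genes (30.1%), among them Ogdh and Idh3a.

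Ogdh on chr11:6291633-6356642 (plus strand) encodes the first component of the 2-oxoglutarate dehydrogenase complex, which makes the succinyl-CoA that succinyl-CoA synthetase uses. It had 6 listed transcripts. Its main transcripts, Ogdh-204 and Ogdh-201, have the same coding length of 3069 bases and differ by only 76 and 83 bases that no other listed transcript holds. Ogdh-204 had 28.4, 0.117, 22.2, 42.7, 20.95 and 43.4 FPKM in PZH 1 to PZH 6 and 46.5, 45.7, 20.2, 48.1, 46.3 and 52.4 in control 1 to control 6. Ogdh-201 had 1.65, 29.3, 20, 2.92, 20.4 and 2.06 FPKM in PZH 1 to PZH 6 and 2.37, 2.26, 19.6, 2.03, 2.62 and 3.11 in control 1 to control 6. Where Ogdh-204 was low, in PZH 2, PZH 3, PZH 5 and control 3, Ogdh-201 was high, so both transcripts overlapped between the groups.

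Of the other Ogdh transcripts, Ogdh-203 had 14.4 FPKM in PZH 2, 2.39 to 3.42 in PZH 3, PZH 5 and control 3, and under 0.1 in the other 8 mice. Ogdh-202 was also highest in those 4 mice, at 2.85 to 4.49 FPKM against 0.128 to 0.590 elsewhere. Ogdh-207, a partial model of 3 exons, lay between 0.855 and 2.51 FPKM in all mice. Ogdh-203 and Ogdh-202 replace a coding exon of 103 bases (chr11:6316978-6317080) by another of 91 bases (chr11:6316765-6316855), and Ogdh-203 adds an exon of 45 bases (chr11:6324878-6324922). These exons, on the plus strand of GRCm38 from the GENCODE M21 transcripts, are shown because they are the coding difference between the transcripts that varied from mouse to mouse.
Ogdh-204 and Ogdh-201: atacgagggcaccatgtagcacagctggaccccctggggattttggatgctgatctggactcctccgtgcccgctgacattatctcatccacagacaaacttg
Ogdh-203 and Ogdh-202: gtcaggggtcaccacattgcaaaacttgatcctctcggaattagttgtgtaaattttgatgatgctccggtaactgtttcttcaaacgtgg
Ogdh-203, added exon: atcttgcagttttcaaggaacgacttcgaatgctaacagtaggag

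As a gene, Ogdh had a lowest, median and highest sum of 31.7, 48.8 and 51.6 FPKM in the PZH mice and 50.3, 51.8 and 57.7 in the control mice. PZH 1 was far below the other mice, and 4 PZH mice lay below every control mouse. Ogdh had a log2 fold change of -0.19 (SE 0.106) as deposited and -0.010 after median-ratio scaling, and without PZH 1 it was -0.087 as deposited. The gene sum was thus far steadier than its transcripts, since PZH 2, with almost no Ogdh-204, had the highest gene sum of its group.

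Sucla2 and Idh3a also had transcript values that a single mouse set apart. Sucla2-203 carried at least 99.4% of the gene sum in 10 mice, 87.6% in PZH 5 and 64.0% in control 5. Sucla2-201, which has the same coding length of 1389 bases and no base that the other listed transcripts lack, was listed at 0 in those 10 mice and at 3.70 and 12.7 FPKM in PZH 5 and control 5. In Idh3a, Idh3a-205 made up 32.7% to 53.5% of the sum in 11 mice and 99.5% in control 5, where Idh3a-201 had 0.0473 FPKM. Both genes thus had their most unusual division in control 5, which stood with the other control mice in its Suclg2 shares. Mean FPKM was under 1 in both groups for 4 of the 20 transcripts, Suclg2-205 among them.

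Cs on chr10:128337734-128362479 (plus strand), citrate synthase, is the entry step of the cycle and had 1 listed transcript. It had 39.5, 41.6 and 43.0 FPKM (lowest, median, highest) in the PZH mice and 41.4, 42.3 and 47.5 in the control mice. The groups overlapped, and Cs had the smallest SD of the 9 genes relative to its mean over the 12 mice. Its log2 fold change was -0.066 (SE 0.055) as deposited and 0.12 after median-ratio scaling, with opposite signs, and -0.040 as deposited without control 3.

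Idh2 on chr7:80094846-80115392 (minus strand), the mitochondrial NADP-dependent isocitrate dehydrogenase, had 42.2, 46.8 and 56.0 FPKM in the PZH mice and 28.8, 35.3 and 41.2 in the control mice. Each PZH mouse lay above each control mouse, with 0.941 FPKM between PZH 2 and control 6. Its log2 fold change was 0.42 (SE 0.098) as deposited and 0.60 after median-ratio scaling.

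Idh3a on chr9:54586334-54604661 (plus strand), the catalytic subunit of the NAD-dependent isocitrate dehydrogenase of the cycle, had gene sums of 9.87, 11.7 and 15.8 FPKM in the PZH mice. In the control mice they were 6.46, 8.73 and 9.58. The groups did not overlap, with PZH 6 and control 4 nearest to each other and PZH 1 highest. The log2 fold change was 0.45 (SE 0.113) as deposited and 0.62 after median-ratio scaling. The estimated division of the change between its transcripts was unequal, with 0.10 (SE 0.203) for Idh3a-205 and 0.94 (SE 0.387) for Idh3a-201. Both values depend on control 5, which set both transcripts apart, and changes without it are not given. Median FPKM of Idh3a-205 was 5.04 in the PZH mice and 3.87 in the control mice. For Idh3a-201 the medians were 7.15 and 4.28. Idh3a-201 has no base that the other listed transcripts lack. The ratio of Idh2 to Idh3a was 3.03 to 5.67 in PZH livers and 3.23 to 6.38 in control livers, so it overlapped almost fully.

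Fh1 on chr1:175600374-175625635 (minus strand), fumarase, had 26.2, 31.9 and 36.6 FPKM in the PZH mice and 28.3, 35.0 and 36.8 in the control mice. The ranges nearly coincided, and the log2 fold change was -0.087 (SE 0.098) as deposited and 0.093 after median-ratio scaling. Leaving out a mouse moved the deposited value of Fh1 between -0.134 (without control 2) and -0.037 (without PZH 2). Mdh2 on chr5:135778480-135790398 (plus strand), the malate dehydrogenase that closes the cycle, had 87.1, 93.2 and 100.7 FPKM in the PZH mice and 92.0, 98.6 and 124.2 in the control mice. Control 6 was highest, and the other 5 control mice lay between 92.0 and 100.5 FPKM, inside the range of the PZH mice. Mdh2 had a log2 fold change of -0.12 (SE 0.076) as deposited and 0.067 after median-ratio scaling, again of opposite sign, and without control 6 it was -0.057 as deposited.

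Over the 9 genes, the median log2 fold change was -0.066 as deposited and 0.12 after median-ratio scaling, against -0.11 and -0.00495 over all genes. Suclg1, Idh2 and Idh3a, 3 of the 9, passed the limma threshold as higher and 0 passed as lower (0 also at an unadjusted p under 0.05), where 12.7% and 32.1% of all genes did (44.8% in either direction). After median-ratio scaling Sucla2 joined them, which made 4 higher and 0 lower (again 0 at an unadjusted p under 0.05), where 19.3% and 19.7% of all genes passed. Groups did not overlap for 2 of the 9 genes, where 24.3% of all genes did not. They overlapped for 17 of the 20 transcripts, where 88.0% of all transcripts did. With a 2-fold change and an unadjusted P threshold of 0.05, 1 of the 20 transcripts (Suclg2-201) passed, as did 3.23% of all transcripts. After median-ratio scaling 3 passed (Suclg2-201, Suclg2-204 and Idh3a-201), as did 3.19% of all transcripts. Idh3a-201 had 0.0473 FPKM in control 5 and 3.25 to 5.61 in the other control mice, and its pass was not tested without control 5. Nothing is read from these counts, since the contrast chose the genes. Of all gene calls 28.3% were higher as deposited (1798 higher, 4560 lower) and 49.5% after median-ratio scaling (2737 and 2793). Of the 2-fold transcript calls, 38.5% were higher as deposited (372 higher, 594 lower) and 59.0% after median-ratio scaling (562 and 390).

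Genes next to these enzymes in metabolism were counted in lists, with limma over all genes and Benjamini-Hochberg adjustment at 0.05. Of 59 listed genes, 23 passed as higher with PZH, 6 passed as lower and 30 did not pass. After median-ratio scaling 32 were higher and 2 lower. Over all genes, 12.7% passed as higher and 32.1% as lower as deposited, and 19.3% and 19.7% after median-ratio scaling. These shares stand beside the counts of every list and marker set below. The 59 genes had a median log2 fold change of 0.11 as deposited and 0.29 after median-ratio scaling, and the same over all genes was -0.11 and -0.00495. The 6 lower genes were Pcx, Glud1, Gpt2, Me2, Sugct and Tomm20, of which Pcx and Tomm20 also passed after median-ratio scaling. Leaving out control 2, control 6 or PZH 4 brought the lower calls to 3.

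Of the other cycle enzymes, 3 of 9 were higher and 0 lower with limma (0 lower at an unadjusted p under 0.05), with a median log2 fold change of 0.13. After median-ratio scaling 5 were higher. Sdhd, a membrane anchor of succinate dehydrogenase, rose by 0.36 (SE 0.112, limma adjusted p = 0.0182), from 53.7 to 68.6 FPKM in the control mice to 62.9 to 96.6 in the PZH mice. Sdhb, its iron-sulfur subunit, rose by 0.36 (SE 0.134, limma adjusted p = 0.0427), with 60.1 to 112.5 FPKM in PZH livers and 55.7 to 75.5 in control livers. The call of Sdhb passed in 3 of the 12 fits that left out a mouse (without control 6, PZH 2 or PZH 3), where the adjusted p ran from 0.00939 to 0.0932, and it did not pass with a pseudocount of 0.1 (limma adjusted p = 0.0556). Sdha, the most abundant gene of the list, had 81.0 to 103.0 FPKM in PZH livers and 87.2 to 94.5 in control livers, with 0.047 (SE 0.062, limma adjusted p = 0.573), and passed after median-ratio scaling with 0.23 (limma adjusted p = 0.0126).

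The pyruvate dehydrogenase complex, which supplies acetyl-CoA from pyruvate, is switched off by kinases (Pdk genes) and on by phosphatases (Pdp genes). Of its 11 genes 4 were higher and 0 lower with limma (2 lower at an unadjusted p under 0.05), with a median of 0.10, and both kinds of regulator were among the 4. Pdk2 had 15.4, 25.4 and 28.3 FPKM in the PZH mice and 6.40, 9.82 and 11.2 in the control mice. Pdp2 had 9.56, 12.2 and 14.8 FPKM in the PZH mice and 4.46, 5.66 and 7.73 in the control mice. All 6 PZH mice lay above all control mice in both genes, with log2 fold changes of 1.22 (SE 0.166, limma adjusted p = 0.000115) for Pdk2 and 0.97 (SE 0.131, limma adjusted p = 0.000112) for Pdp2. Pdk1 rose by 0.73 (SE 0.142, limma adjusted p = 0.00118) and Dlat, the acetyltransferase core of the complex, by 0.41 (SE 0.084, limma adjusted p = 0.00174), again without overlap. Pdhb, the most abundant gene of the list with 54.3 to 78.8 FPKM in PZH livers and 51.5 to 62.7 in control livers, did not pass (0.20, SE 0.087, limma adjusted p = 0.074). Pdhb passed after median-ratio scaling (0.39, limma adjusted p = 0.0161) and without control 6 (0.0478) or PZH 2 (0.0301).

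Among the routes that fill or drain the cycle, 1 of 11 genes was higher and 4 were lower, with a median of -0.15 as deposited and 0.029 after median-ratio scaling. The balance turned after median-ratio scaling, with 3 higher and 1 lower. The genes gained as higher, named after their values were seen, were Got2 (0.47, limma adjusted p = 0.00217) and Gls2 (0.53, limma adjusted p = 0.0268), which had limma adjusted p of 0.0519 and 0.0889 as deposited. Pcx, pyruvate carboxylase, which makes oxaloacetate from pyruvate, had 50.4, 78.7 and 85.9 FPKM in the PZH mice and 89.9, 113.2 and 120.3 in the control mice. All 6 PZH mice lay below all control mice, at a change of -0.55 (SE 0.120, limma adjusted p = 0.00267) that was -0.36 after median-ratio scaling (limma adjusted p = 0.011). Acly, the cytosolic enzyme that splits exported citrate for fatty acid synthesis, had 67.2, 89.4 and 129.2 FPKM in the PZH mice and 42.1, 48.8 and 82.7 in the control mice. It rose by 0.78 (SE 0.189, limma adjusted p = 0.00491), with 4 PZH mice above all control mice. Glud1, glutamate dehydrogenase and the most abundant gene of this list, had 236.7 to 346.1 FPKM in PZH livers and 307.3 to 388.7 in control livers, a change of -0.32 (SE 0.090, limma adjusted p = 0.0121). Gpt2, the mitochondrial alanine aminotransferase, had a change of -0.29 (SE 0.106, limma adjusted p = 0.0412). Neither Glud1 (-0.13, limma adjusted p = 0.194) nor Gpt2 (-0.10, limma adjusted p = 0.461) passed after median-ratio scaling, and Gpt2 passed in only 4 of the 12 fits that left out a mouse (without control 3, control 4, PZH 5 or PZH 6; limma adjusted p 0.0265 to 0.0891) and not with a pseudocount of 0.1 (limma adjusted p = 0.0594). Me2, mitochondrial malic enzyme, named after its values were seen, had -0.18 (SE 0.063, limma adjusted p = 0.0327) as deposited and -0.040 (limma adjusted p = 0.705) after median-ratio scaling, and passed in 5 of those 12 fits (without control 1, control 3, control 4, PZH 1 or PZH 6). With a mean-variance trend the limma adjusted p of Me2 was 0.0556.

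All 3 cytosolic counterparts of cycle enzymes were higher, with a median of 0.49 as deposited and 0.67 after median-ratio scaling. Mdh1, the cytosolic malate dehydrogenase, had 88.3, 115.9 and 171.8 FPKM in the PZH mice and 72.7, 82.2 and 88.3 in the control mice, a rise of 0.54 (SE 0.132, limma adjusted p = 0.00494). Idh1, the cytosolic NADP-dependent isocitrate dehydrogenase, had 71.4, 77.1 and 120.3 FPKM against 50.9, 55.7 and 79.9, a rise of 0.49 (SE 0.138, limma adjusted p = 0.0114). Aco1, cytosolic aconitase, had 46.5, 51.0 and 55.6 FPKM against 37.8, 41.8 and 42.8, a rise of 0.30 (SE 0.059, limma adjusted p = 0.0013). Mdh1 and Aco1 did not overlap between the groups, although PZH 2 (88.34 FPKM) and control 2 (88.28 FPKM) were nearly equal in Mdh1. In Idh1, 2 PZH mice exceeded all control mice. Mdh1 thus passed as higher, whereas its mitochondrial counterpart Mdh2 had a log2 fold change of -0.12 as deposited and 0.067 after scaling, and the difference between them was not tested.

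Of the mitochondrial carriers of cycle acids 5 of 8 were higher and 0 lower with limma (0 lower at an unadjusted p under 0.05), with a median of 0.31. Slc25a13, the aspartate-glutamate carrier of the liver, was the most abundant of the list by the mean over the 12 mice. In the control mice Slc25a1 and Mpc2 had higher means (48.6 and 35.8 FPKM against 34.8). Slc25a13 had 55.4, 67.5 and 74.0 FPKM in the PZH mice and 28.1, 35.1 and 42.5 in the control mice. Slc25a21, the 2-oxodicarboxylate carrier, had 2.97, 3.39 and 3.94 FPKM in the PZH mice and 1.27, 1.63 and 1.95 in the control mice. Neither gene overlapped between the groups, with rises of 0.92 (SE 0.10, limma adjusted p = 3.15e-05) for Slc25a13 and 0.77 (SE 0.080, limma adjusted p = 2.46e-05) for Slc25a21. The dicarboxylate carrier Slc25a10 rose by 0.59 (SE 0.158, limma adjusted p = 0.00859) and the 2-oxoglutarate carrier Slc25a11 by 0.37 (SE 0.087, limma adjusted p = 0.00394). In these carriers 5 and 4 of the 6 PZH mice exceeded all control mice.

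Of the routes to and from succinyl-CoA, the substrate of succinyl-CoA synthetase, 6 of 8 genes were higher and 1 lower, with a median of 0.43 as deposited and 0.60 after median-ratio scaling. Propionyl-CoA enters the cycle here through Pcca, Pccb, Mcee and Mut (methylmalonyl-CoA mutase). Mut, the most abundant of the list by the mean over the 12 mice (Alas1 had a higher mean in the PZH mice), had 36.4, 40.9 and 54.1 FPKM in the PZH mice and 29.0, 31.9 and 34.3 in the control mice, with a rise of 0.40 (SE 0.093, limma adjusted p = 0.00351). Mcee, the epimerase before it, had 12.1, 15.6 and 18.2 FPKM against 7.86, 9.71 and 11.8, a rise of 0.62 (SE 0.113, limma adjusted p = 0.000759). Pcca, the biotin-carrying subunit of propionyl-CoA carboxylase, rose by 0.45 (SE 0.10, limma adjusted p = 0.00298), with 5 of 6 PZH mice above all control mice. Pccb, the other subunit of this carboxylase, named after its values were seen, did not pass as deposited (0.056, SE 0.076, limma adjusted p = 0.58). Its values were 26.3 to 35.9 FPKM in PZH livers and 29.3 to 33.2 in control livers. After median-ratio scaling Pccb passed with 0.24 (limma adjusted p = 0.00962). Acot4, a peroxisomal thioesterase that releases succinate from succinyl-CoA, had 12.1 to 15.0 FPKM in PZH livers and 6.51 to 9.80 in control livers, a rise of 0.65 (SE 0.093, limma adjusted p = 0.000164). Mut, Mcee and Acot4 did not overlap between the groups.

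Alas1, which draws on succinyl-CoA for the first step of haem synthesis, had 21.7, 33.3 and 88.5 FPKM in the PZH mice and 14.6, 21.3 and 38.9 in the control mice. Its groups overlapped in 4 of the 6 PZH mice, and its change of 0.84 (SE 0.317, limma adjusted p = 0.0456) passed in 2 of the 12 fits that left out a mouse (without control 6 or PZH 6; limma adjusted p 0.0187 to 0.0997). It also failed to pass with a pseudocount of 0.1 (limma adjusted p = 0.0507) and after rescaling to equal FPKM sums (0.0613). Sugct, named after its values were seen, makes glutaryl-CoA with succinyl-CoA as the donor and was the lower gene of the list. Its change was -0.20 (SE 0.072, limma adjusted p = 0.0407) as deposited and -0.033 (limma adjusted p = 0.765) after median-ratio scaling. The call of Sugct passed in 4 of the 12 fits that left out a mouse (without control 4, control 5, PZH 3 or PZH 6), and not with a pseudocount of 0.1 (limma adjusted p = 0.0624) or a mean-variance trend (0.0542).

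Lipoylation provides the cofactor of the 2-oxoglutarate and pyruvate dehydrogenase complexes, and 0 of its 3 genes passed with limma on either scale. At an unadjusted p under 0.05, 2 passed as deposited, both as lower, and 0 passed after median-ratio scaling. Lias, the most abundant of them, had 6.90, 7.08 and 8.63 FPKM in the PZH mice and 6.24, 7.61 and 8.47 in the control mice (log2 fold change -0.013, SE 0.075, limma adjusted p = 0.91). Of 6 general mitochondrial genes, 1 was higher and 1 lower, with a median of -0.034 as deposited and 0.14 after median-ratio scaling. Vdac1, the channel of the outer membrane, rose by 0.30 (SE 0.081, limma adjusted p = 0.00945), and Tomm20, an import receptor, changed by -0.43 (SE 0.086, limma adjusted p = 0.00145), both without overlap. Atp5b, the most abundant of these genes and the beta subunit of ATP synthase, had 248.0 to 297.8 FPKM in PZH livers and 256.7 to 309.9 in control livers (0.019, SE 0.066, limma adjusted p = 0.84). After median-ratio scaling Atp5b passed with 0.20 (limma adjusted p = 0.0444).

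Markers of liver cells were measured in the same libraries. All 5 hepatocyte markers, which define liver tissue, were well above those of other cells, with summed FPKM of 40690, 44480 and 56700 (lowest, median, highest) in the PZH mice and 22880, 29600 and 36280 in the control mice. Of the 5, 3 were higher with limma as deposited and 5 after median-ratio scaling, and Alb was the most abundant with a rise of 0.68 (SE 0.123, limma adjusted p = 0.000697). The sum did not overlap between the groups, and its part in the levels of the cycle enzymes was not tested.

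Markers of Kupffer cells and macrophages summed to 98.8 to 138.0 FPKM in PZH livers and 78.6 to 104.3 in control livers, with Clec4f the most abundant over the 12 mice and Cd68 in the control mice. As deposited 2 of 5 were higher (Clec4f and Vsig4) and 1 lower (Cd68, limma adjusted p = 0.02), and after median-ratio scaling 3 were higher and Cd68 no longer passed (limma adjusted p = 0.18). Those of stellate cells and myofibroblasts summed to 207.4 to 263.7 and 177.0 to 257.1, led by Dcn, with 0 of 5 higher with limma (0 also at an unadjusted p under 0.05) and 2 lower (Des and Acta2, the latter by -0.92, SE 0.262, limma adjusted p = 0.0123), which were also lower after median-ratio scaling. Sinusoidal endothelium summed to 61.3 to 75.4 and 63.1 to 73.0, led by Clec4g, with 1 of 4 lower (Lyve1), and with Kdr higher as well after median-ratio scaling (limma adjusted p = 0.00306). Those of cholangiocytes summed to 5.40 to 7.60 in PZH livers and 11.9 to 18.8 in control livers, without overlap, and Sox9 alone made the separation. In that list 1 of 4 was lower, Sox9, with 2.22 to 3.42 FPKM in PZH livers and 8.64 to 13.5 in control livers (-1.64, SE 0.107, limma adjusted p = 5.15e-06). Krt19, which was above Sox9 by the mean of the PZH mice, had 2.01 to 4.16 and 1.79 to 4.45 FPKM, and Krt7 stayed under 0.5 FPKM. Epcam had 0.30 (limma adjusted p = 0.113) as deposited and passed as higher after median-ratio scaling with 0.37 (limma adjusted p = 0.0477).

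Lymphocyte markers were low, with sums of 1.57 to 3.39 FPKM in PZH livers and 1.79 to 3.31 in control livers, and Cd79a was the most abundant. Neutrophil markers, led by S100a8, summed to 5.66 to 12.4 FPKM in 5 PZH mice, 117.6 in PZH 3 and 9.39 to 46.8 in the control mice, and Ly6g was listed at 0 in 2 mice. With limma, 0 of these 7 genes passed as deposited or after median-ratio scaling, and 0 had an unadjusted p under 0.05 on either scale. Of 5 markers of muscle, fat and pancreas, Adipoq had a listed transcript, at 0 in 9 mice and at most 0.935 FPKM. The part of these cell types in the values of the cycle enzymes and of the Suclg2 transcripts was not tested.

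Genes most like Suclg2 were sought among the other 10947 genes with a mean of at least 1 FPKM, by Pearson r with the Suclg2 gene sum on log2(FPKM + 1) after the group mean was subtracted. Over the 12 mice the 5 highest were Cipc (r = 0.85, Spearman's rho = 0.69), Rab30 (0.85 and 0.78), Narf (0.84 and 0.91), Aldh3a2 (0.83 and 0.75) and Nob1 (0.83 and 0.89). They were picked as the highest of many, share the libraries and their scaling with Suclg2, and are given as a description.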

How the data were processed

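Paired reads of 150 bp had been trimmed by the authors (Trimmomatic), aligned on GRCm38 (HISAT2 2.1.0) and quantified per transcript (StringTie 1.3.5, Ensembl release 95). They deposited FPKM per transcript, estimates already divided by length and library size. Read counts were not recovered from them, so no counting interval is given and precision rests on the spread between mice. Genes were assigned with GENCODE M21, which held 29876 of the 29883 transcripts; the lncRNA table was not used here.

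Groups were compared on log2(FPKM + 1) with limma 3.58.1 in R 4.3.3, two-sided, with no filter or covariate and with Benjamini-Hochberg adjustment over the whole table. Descriptive values were computed with pandas 2.3.3 and scipy 1.17.1 under Python 3.11.15, and plots were drawn with matplotlib 3.10.9. The fit was tested on simulated normal values of 14188 genes, 200 of them moved by a log2 change of 0.5. It recovered 62% of the moved genes and called 10 unchanged genes. A gene that did not pass is thus not shown to be unchanged. The 9 genes and the lists were chosen with earlier results of these data known. Of each list, the text names up to 4 genes with the largest absolute log2 fold change among those passing, and the most abundant. Me3, Ckm, Acta1, Cpa1 and Cela3b had no listed transcript. Values of some listed genes are not reported here. Alternatives were a pseudocount of 0.1, a mean of at least 1 FPKM, median-ratio scaling, equal FPKM sums, a mean-variance trend, the replicate block and leaving out each mouse.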

Additional observations from a re-analysis of the deposited data

Results flagged for a closer look

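Values of the 9 genes and of their named transcripts were searched for a value far from the other 5 of its group, relative to the range of that group. In 44 groups of 6 values, 14 such values were found. The limit used is passed by about 1 in 20 groups of normally distributed values. Transcript FPKM need not be so distributed (Sucla2-201 was listed at 0 in 10 mice), so the 14 are not set against chance. The groups are not independent, since the transcripts of a gene share its reads.

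Among gene values, Ogdh was low in PZH 1 (31.7 FPKM) and Mdh2 was high in control 6 (124.2 FPKM, of which Mdh2-201 made up 123.8). Suclg2-204 was low in PZH 2 (35.4 FPKM) and in control 6 (8.70 FPKM). In control 5, Sucla2-203 was low (22.7 FPKM), Sucla2-201 was high (12.7 FPKM) and Idh3a-205 was high (9.42 FPKM), and in PZH 5 Sucla2-201 was high (3.70 FPKM). In control 3, Ogdh-204 was low (20.2 FPKM), while Ogdh-201 (19.6 FPKM), Ogdh-203 (3.42 FPKM) and Ogdh-202 (3.84 FPKM) were high. Ogdh-203 was also high in PZH 2 (14.4 FPKM). Of the 14 values, 12 belong to transcripts and 2 to gene sums.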

How the results depend on the processing

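With median-ratio scaling, gene calls were 2737 higher and 2793 lower, 2-fold transcript calls 562 higher and 390 lower, and lower calls among the other pathway genes 2. With a pseudocount of 0.1, the 2-fold transcript calls were 1070 higher and 1911 lower. With equal FPKM sums, 10 other pathway genes were lower. The cause was not tested. The fits that left out a mouse gave 3 to 7 lower and 20 to 25 higher pathway genes, 1529 to 1891 higher and 3989 to 4624 lower genes, and a mean Suclg2-201 share of 5.31% to 9.40% in PZH livers and 47.0% to 56.4% in control livers.

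The mouse numbers do not pair the mice: correlations of deviations between mice of the same number ran from -0.0732 to 0.0763, and 1 of 6 numbers correlated best with itself. With the replicate block, 378 transcripts were higher and 598 lower at 2-fold, 1694 genes were higher and 4288 lower, and 21 pathway genes were higher and 7 lower. With it the limma adjusted p was 0.0601 for Sdhb, 0.0709 for Me2 and 0.1 for Alas1.

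Of the fold changes of the 9 genes, the Suclg2 transcripts and the named pathway genes, 0 called values changed sign. Of the mean levels of the 9 genes, taken per group, 5 moved by more than the SD with median-ratio scaling and 13 did not. Without read counts, the depth behind a low transcript value is not known.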
